A study of Mus musculus with 6 samples.

Results

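The ATP-binding cassette (ABC) family was followed in livers of mice treated with poloxamer P-407, a block copolymer surfactant that raises blood lipids. Members were all genes whose symbol in the platform annotation is Abc, a subfamily letter from a to g and a number. Of 17347 genes named by single-gene features of either array type, 45 were members. The oligonucleotide array carried all 45, in 54 of its 22575 features, and the cDNA array carried 27 of them, in 32 of 13482 features.

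The treated livers came from 12 female C57BL/6 mice, 7 weeks old when dosing began. They were injected intraperitoneally with P-407 (0.5 g/kg) once every 3 days over 96 days. Their RNA was combined into 3 pools. The reference was a single pool of 4 mice injected with normal saline on the same schedule, and all mice ate a chow with 4.4% fat. Each treated pool, in Cy5, was read against the control pool, in Cy3, on 1 oligonucleotide array (0.5 ug RNA, linear amplification) and 1 cDNA array (10 ug RNA, direct labelling), so both array types share their RNA. Each value is a log ratio of a treated pool over the control pool, taken to be log2. Positive values stand for higher RNA levels after P-407. The labels give no log base, and were it a natural log every fold below would be larger. The spread among control mice was not measured. The same control pool is the denominator of every ratio, so any deviation of that pool is shared by all of them. Without a dye swap the effects of dye and of P-407 cannot be told apart. In bulk liver, fewer cells of a type and less RNA per cell cannot be told apart either.

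ABC proteins bind and hydrolyse ATP, and most of them use it to move a substrate across a membrane. In liver, Abca1 passes cholesterol and phospholipid to apolipoprotein A-I, which begins a high-density lipoprotein particle, and Abcg1 adds sterol to formed particles. Abcg5 and Abcg8 act as a heterodimer that secretes sterols into bile. Pumps of the canalicular membrane, where hepatocytes face the bile, export bile salts, phospholipid, conjugates and drugs, and other members serve mitochondria, lysosomes, peroxisomes or, without any membrane part, translation.

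In the treated pools, 9 of 45 members had higher and 9 had lower RNA levels than the control pool on the oligonucleotide array (limma, Benjamini-Hochberg adjusted p under 0.05 over all 16871 genes tested). Abcg1 and Abca1 led the increases, at 2.35-fold and 1.47-fold, and Abca9 and Abcd3, a peroxisomal transporter, led the decreases, at 1.52-fold and 1.35-fold. Over all genes, 22.0% were called higher and 21.4% lower, 43.4% in all, against 9 of 45 members in each direction (40% in all), so the count of called members was close to that of the array as a whole. The median log2 ratio was -0.01 over the members and 0.00 over all genes, and the median absolute log2 ratio was 0.12 against 0.13. A fold of at least 1.2 was passed by 3 members in limma's treat test, namely Abcg1, Abca1 and Abca9, where 3.01% of all genes were higher and 2.16% lower. Of the 18 called members, 11 were called with any 1 pool left out, 5 of them higher and 6 lower. Without pool 1, 5 members were higher and 6 lower, and the share of all genes called fell to 23.9%.

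**Figure D1:**
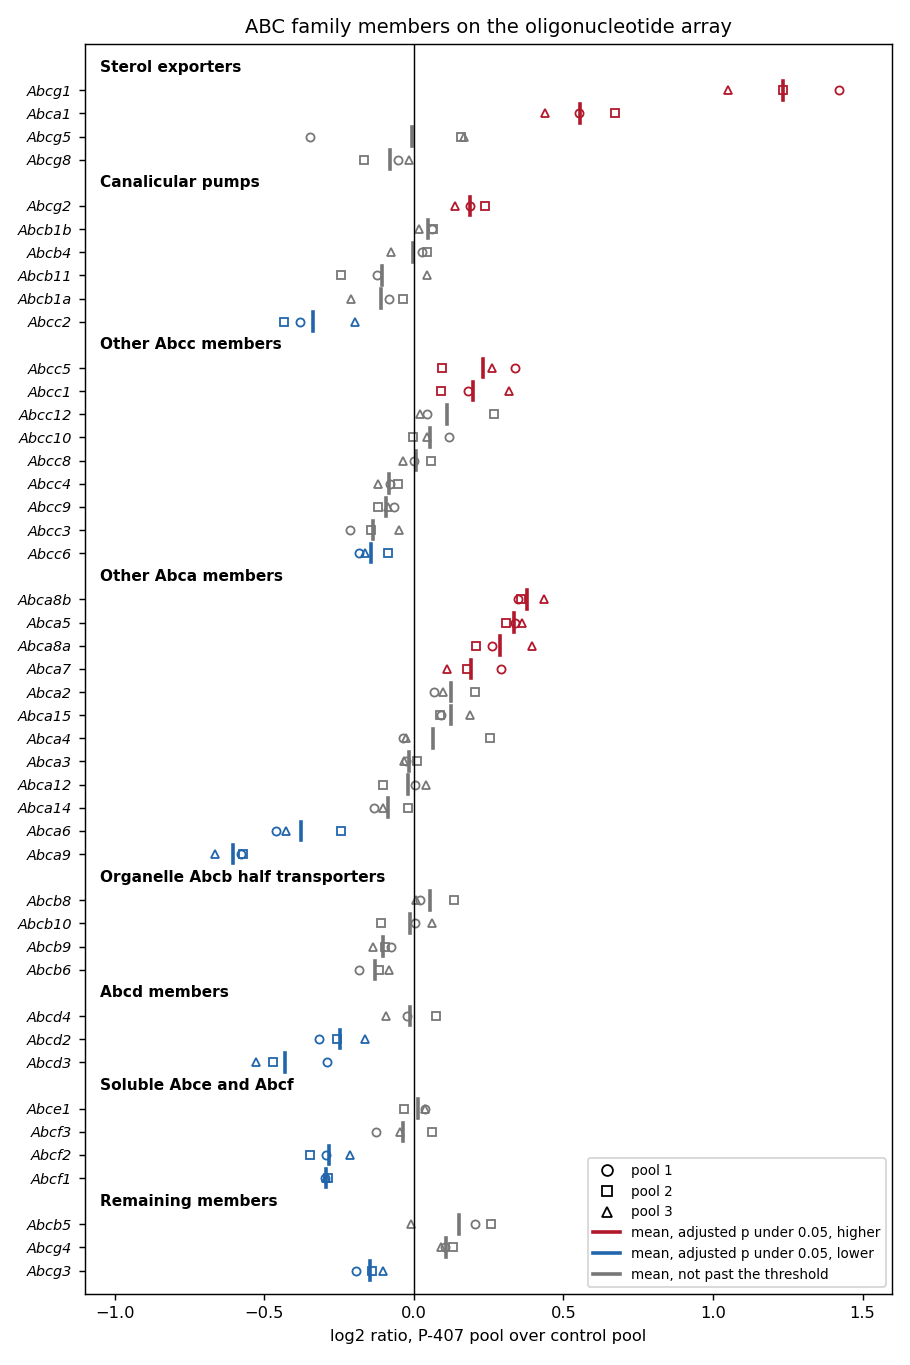
Log2 ratio (x axis) of each of the 45 members on the oligonucleotide array, by class. Symbols are the 3 treated pools over the control pool and vertical bars are their means, in red or blue where the adjusted p was under 0.05. Abcg1 stands apart at a mean of 1.24, and most other members lie within 0.4 of 0.

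The size of these ratios was set beside genes of chemosensory receptors. Whether the liver uses any of them was not tested. Of 862 genes of chemosensory receptors on the same arrays, 95% had an absolute log2 ratio of up to 0.41. That level was exceeded by 4 of 45 members (8.89%) and by 8.86% of all genes tested. The 4 were Abcg1, Abca1, Abca9 and Abcd3. The other 14 called members lay within the range of 95% of the chemosensory receptor genes. Of the 862 chemosensory receptor genes, 36.1% were themselves called. The largest absolute log2 ratio among them was 2.08, and 0 members exceeded it.

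**Figure D2:**
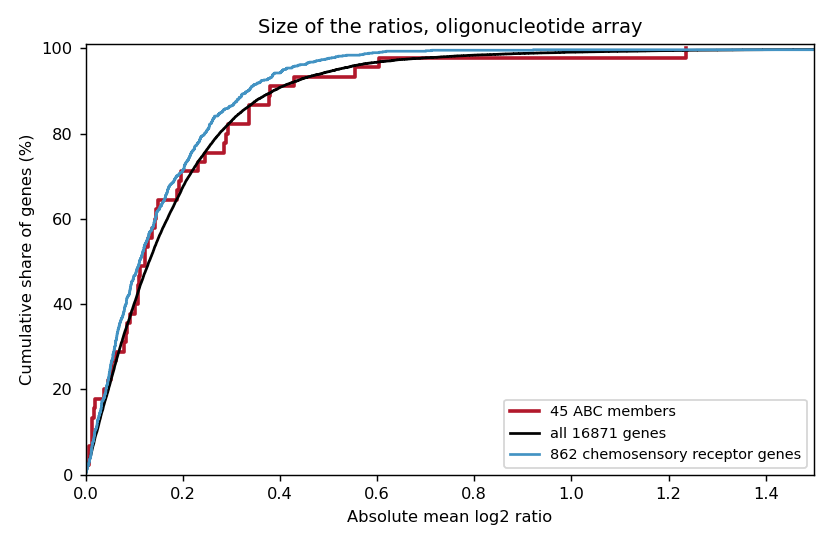
Cumulative share of genes (y axis, percent) by absolute mean log2 ratio (x axis) on the oligonucleotide array, for the 45 members, all 16871 genes and 862 chemosensory receptor genes. The line of the members follows that of all genes, with the last step, Abcg1, at 1.24.

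The sterol exporters split on the oligonucleotide array into a pair called higher and a pair that did not pass the test. Abcg1, which macrophages as well as hepatocytes use to export sterol, had log2 ratios of 1.42, 1.23 and 1.05 in pools 1, 2 and 3. All 3 pools lay well above 0, and the mean of 1.24 ± 0.18 (SD, n = 3 pools, limma adjusted p = 3.93e-04) was the 62nd highest of 16871 genes. Abca1 had 0.55, 0.67 and 0.44, again above 0 in every pool, with a mean of 0.55 ± 0.12 (adjusted p = 0.0013). Abcg5 had -0.35, 0.16 and 0.17, so pool 1 and the other pools lay on opposite sides of 0 (mean -0.01 ± 0.29, adjusted p = 0.965). Its partner Abcg8 had -0.05, -0.17 and -0.02, a small negative value in each pool (mean -0.08 ± 0.08, adjusted p = 0.222). The mean of the 4 exporters was 0.39, 0.47 and 0.41 in the 3 pools, and it rested on Abcg1 and Abca1.

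On the cDNA array the exporters were measured less fully. The only Abcg1 feature had 0.65 and 0.49 in pools 1 and 2. In pool 3 it was listed at 0, taken as missing, so it did not enter the main fit. Abca1 had -1.14, -0.40 and -0.19 there, below 0 in every pool and thus on the other side of 0 from the oligonucleotide array (mean -0.58 ± 0.50, adjusted p = 0.198). The Abca1 ratios of the array types differed by 1.13 ± 0.26 (SE, oligonucleotide minus cDNA, adjusted p = 0.0502). With the pool fitted as a block, the limma adjusted p of this difference was 0.138 as a fixed effect and 0.0449 as a random effect. Averaged over both arrays of a pool, Abca1 was at -0.29, 0.14 and 0.12, a mean of -0.01 that was not called. Abca1 was thus called higher on the oligonucleotide array alone. Abcg5 had -0.62 and -0.19 in pools 1 and 3 of the cDNA array, and Abcg8 had no feature named on it.

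Markers of cell types were first read on the oligonucleotide array, where 22.0% of all genes were called higher and 21.4% lower. The oligonucleotide array measured 23 of 25 listed macrophage markers, of which 17 were higher and 4 (Cd163, Itgam, Marco and Vsig4) were lower. Their mean log2 ratio was 1.13, 0.93 and 0.98 in the 3 pools. Cd68, a lysosomal glycoprotein of macrophages, was at 1.61 ± 0.09, and Cd163, the haemoglobin scavenger receptor, at -1.77 ± 0.13. Of 24 hepatocyte markers, 22 were measured, 10 lower and 0 higher, with a mean of -0.35, -0.34 and -0.33. In 4 of them, Alb, Ahsg, Fgb and Serpina1d, the ratios of every pool were the same to within 0.001 (for Alb -0.05, -0.21 and -0.57), as they were in 6 other genes of the array, so these 4 are not separate readings. Without them, 10 of 18 were lower and 0 higher, with a mean of -0.42, -0.37 and -0.28. No member of the family had such values. Of 10 stellate cell markers 9 were higher and 0 lower, with a mean of 0.54 ± 0.07 (SD of 3 pool means), and of 10 markers of sinusoidal endothelium 0 were higher and 3 lower. The cDNA array measured 16 macrophage markers, 4 of them below 0 and 0 called. Their mean was 0.96, 1.36 and 0.76 in the 3 pools, while Abca1 was below 0 in each pool on that array. Over 17 hepatocyte markers the mean on the cDNA array was -0.37, -0.23 and -0.23, with 0 called. The part of cell composition in the ratios of Abcg1 and Abca1 was not tested.

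Promoter windows of RefSeq (build GRCm38.p6, from 250 bases before to 50 after a transcript start) were found for 35 of the 45 members, in 42 windows. Abcg1 was not among them. Liver X receptors (LXR), sterol sensors that are known to induce all 4 exporters, bind direct repeats with a 4-base spacer. A search on both strands for GGTNA and GGTCA with 5 bases of any kind between them, a loose form of such a repeat, matched 1 of the 42 windows and 0.207% of all 32851 windows. The match lay in the Abca1 window, beginning 67 bases before the start on the strand opposite to the gene. The 250 bases before the start of Abca1 (chr4:53159896-53160145, minus strand) are shown first, with that match in capitals. The second sequence is the stretch between the starts of Abcg5 and Abcg8, which are transcribed away from each other (109 bases, chr17:84683012-84683120, plus strand, the strand of Abcg8). Its capitals mark 2 copies of the complement of AGATAA, the letters bound by GATA factors, found on either strand in 11.2% of all windows. No such repeat was found in the windows of either gene. A match describes letters and not binding.
Abca1: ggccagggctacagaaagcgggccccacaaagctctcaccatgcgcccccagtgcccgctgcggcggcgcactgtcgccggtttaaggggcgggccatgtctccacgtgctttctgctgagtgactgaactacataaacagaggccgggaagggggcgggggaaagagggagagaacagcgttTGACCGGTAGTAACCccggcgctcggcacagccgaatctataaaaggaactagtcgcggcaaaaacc
Abcg5-Abcg8: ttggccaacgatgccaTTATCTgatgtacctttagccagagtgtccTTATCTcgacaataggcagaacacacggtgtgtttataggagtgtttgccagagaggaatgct

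The oligonucleotide array measured 15 of 18 listed genes of sterol efflux and of the LXR pathway. Of these, 2 were higher and 4 lower (40%, against 43.4% of all genes on that array), and their median was -0.12. Npc2, which hands cholesterol out of lysosomes, was higher (0.29 ± 0.13, adjusted p = 0.0105). Mylip, an LXR target that marks the LDL receptor for degradation, was lower (-0.31 ± 0.08, adjusted p = 0.0042), as were Cyp27a1, sterol 27-hydroxylase (-0.46 ± 0.20, adjusted p = 0.0065), and Apoa1, which encodes the acceptor of Abca1 (-0.23 ± 0.06, adjusted p = 0.0092). Nr1h3, which encodes LXR alpha, was at 0.06 ± 0.01 on the oligonucleotide array and at -0.54, -0.77 and -0.13 on the cDNA array, on opposite sides of 0, and was called on neither. The cDNA array measured 11 genes of the list, with a median of -0.40 and 0 called. In the pool means of both array types 9 of these 11 were below 0. Of the 11, 0 were called higher and 2 lower, against 2.47% and 2.64% of all genes. Those 2 were Rxra, which encodes the partner of LXR (-0.83 ± 0.13, adjusted p = 0.0394), and Apoe, an apolipoprotein of remnant particles (-0.88 ± 0.15, adjusted p = 0.0394). Their array types lay far apart, at -0.19 (oligonucleotide) and -1.46 (cDNA) for Rxra and at -0.28 and -1.48 for Apoe. On the oligonucleotide array Apoe is among the 6 genes whose ratios equalled those of Alb.

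Of the 6 canalicular pumps, 1 was lower and 1 higher on the oligonucleotide array (33.3%, against 43.4% of all genes). Abcc2, which exports conjugated bilirubin and glutathione conjugates, had -0.38, -0.43 and -0.20, below 0 in every pool (mean -0.34 ± 0.12, 1.26-fold lower, adjusted p = 0.0061). Abcg2, which exports urate and many drugs, had 0.19, 0.24 and 0.14, above 0 in every pool (mean 0.19 ± 0.05, adjusted p = 0.0161, and 0.0872 without pool 1 or 0.0716 without pool 2). Abcb11, the bile salt export pump, had -0.12, -0.24 and 0.04, with both signs (mean -0.11 ± 0.14, adjusted p = 0.205). Abcb4, which moves phosphatidylcholine into bile, had 0.03, 0.04 and -0.08, the smallest mean of the class (adjusted p = 0.969). The mouse has a pair of genes for the drug pump P-glycoprotein, and neither was called. Abcb1a was at -0.08, -0.04 and -0.21 and Abcb1b at 0.06, 0.06 and 0.02. The mean of the 6 pumps was -0.05, -0.06 and -0.05 in the 3 pools, with a median over the pumps of -0.055.

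Both called pumps had the same sign on the cDNA array, where neither passed the threshold. Abcc2 had -1.02, -0.87 and -0.40 there (mean -0.76 ± 0.32, adjusted p = 0.116) and Abcg2 had 0.54, 0.31 and 0.23 (mean 0.36 ± 0.16, adjusted p = 0.177). Every pool kept its sign for both genes on both array types. Abcb1a, Abcb1b and Abcb4, which are close in sequence and lie next to each other on chromosome 5, were below 0 in all 3 pools on the cDNA array, at means of -0.55, -0.35 and -0.32, and none was called. Long cDNA features can bind related transcripts, and the part of that in these values was not tested.

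Of 18 listed partners and regulators of bile secretion, 17 were measured on the oligonucleotide array. Of these, 1 was higher and 5 were lower (35.3%, against 43.4% of all genes). Nr1i2, which encodes the xenobiotic receptor PXR that is known to induce Abcc2 and Abcb1a, was lower (-0.54 ± 0.14, adjusted p = 0.0018). Nr1i3, which encodes its relative CAR, was lower too (-0.45 ± 0.13, adjusted p = 0.0028), as was Slco1b2, a carrier for uptake from blood (-0.31 ± 0.16, adjusted p = 0.0132). Ezr, which encodes the membrane linker ezrin, was higher (0.45 ± 0.10, adjusted p = 0.0020). Nr1h4, which encodes the bile acid receptor FXR that is known to induce Abcb11, was at -0.01 ± 0.11 on the oligonucleotide array and was not called. On the cDNA array Nr1h4 had -0.52, -0.87 and -0.72, below 0 in every pool (mean -0.70 ± 0.18, adjusted p = 0.102), and its pool mean was -0.36 ± 0.12 (adjusted p = 0.0815). Nr1i2 had both signs on the cDNA array, at -0.22, 1.01 and -0.59.

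The other Abcc members, pumps of the sinusoidal membrane and of other cells and subunits of potassium channels, had log2 ratios between -0.14 and 0.23 on the oligonucleotide array. Of 9 measured there, 2 were higher and 1 was lower (33.3%, against 43.4% of all genes). Abcc5, an exporter of cyclic nucleotides, was at 0.23 ± 0.12 (adjusted p = 0.0214) and Abcc1, an exporter of glutathione conjugates, at 0.20 ± 0.11 (adjusted p = 0.0309). Abcc6, a liver protein whose loss causes calcification of connective tissue, was at -0.14 ± 0.05 (adjusted p = 0.0386). Each of these 3 calls was lost in at least 2 of the 3 fits that left out a pool. Abcc3 and Abcc4, which return conjugates and bile salts to blood, were at -0.14 ± 0.08 and -0.08 ± 0.03 and were not called. The cDNA array gave wider values for 4 of the 9, none of them called, with Abcc10 at 1.03 ± 0.26, Abcc3 at -0.29 ± 0.06 and Abcc4 at -0.81 ± 0.19. Abcc8, a channel subunit known as the sulfonylurea receptor, had the lowest mean of the family there, with -3.77, -1.44 and -0.56 (mean -1.92 ± 1.66, adjusted p = 0.175). It was below 0 in every pool on that array, with a wide spread, and at 0.0068 ± 0.048 on the oligonucleotide array.

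The other Abca members held the largest decrease that the oligonucleotide array showed in the family. Of 12 measured on the oligonucleotide array, 4 were higher and 2 lower (50%, against 43.4% of all genes). Abca9 had -0.58, -0.57 and -0.67, well below 0 in every pool and within 0.1 of each other (mean -0.60 ± 0.05, adjusted p = 5.72e-04). Its values on the cDNA array were -0.16, -0.47 and 0.16, with both signs (mean -0.16 ± 0.32, adjusted p = 0.561). A further cDNA feature of Abca9 had 0.87 in pool 3 alone. Abca7, a relative of Abca1 that is known for its role in phagocytosis, was at 0.19 ± 0.09 (adjusted p = 0.0244, and 0.152 without pool 1 or 0.0783 without pool 2) and at -0.30 ± 0.22 on the cDNA array, where it was not called. The 6 members that were not called ranged from -0.09 for Abca14 to 0.12 for Abca2.

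Of the 6 called Abca members in this class, 5 lie side by side. In the RefSeq gene table of GRCm38.p6, Abca8b, Abca8a, Abca9, Abca6 and Abca5 follow each other on chromosome 11 with no other protein-coding gene between them. All 5 were called, in opposite directions. Abca8b was at 0.35, 0.36 and 0.43 and Abca8a at 0.26, 0.21 and 0.40, all above 0. Abca6 was at -0.46, -0.24 and -0.43, below 0 in each pool like its neighbour Abca9, and Abca5 was at 0.34, 0.31 and 0.36, above 0 in each pool. The means of Abca8b, Abca8a, Abca6 and Abca5 were 0.38, 0.29, -0.38 and 0.34, and the largest adjusted p among these 4 was 0.0070. All 5 were also called with any 1 pool left out. Abca8b had a pair of features with a mean of 0.61 and of 0.15, and Abca8a and Abca8b are close relatives whose transcripts short features may not keep apart, which was not tested. On the cDNA array Abca8b was at -0.32, 0.00 and 0.51, which shows no direction.

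**Figure D3:**
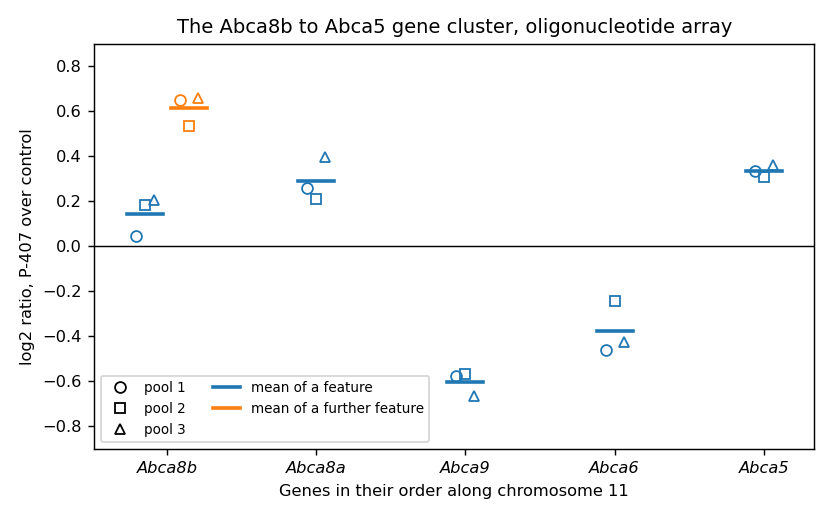
Log2 ratio (y axis) of the 5 neighbouring Abca genes on the oligonucleotide array, in their order along chromosome 11 (x axis, not to distance). Symbols are the 3 pools and bars the mean of a feature, with a further feature of Abca8b in orange. Abca9 and Abca6, in the middle, lie below 0 in every pool and their neighbours above 0.

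The 250 bases before the start are shown for Abca8b (chr11:109995846-109996095, minus strand) and for Abca9 (chr11:110168154-110168403, minus strand), as the neighbours with the highest and the lowest ratio of that cluster. Capitals in Abca8b mark the complement of GGGCGG, the letters known as a GC box, found in 35.7% of all windows. Abca9 held none of the 9 motifs searched on both strands, which besides those named above were the direct repeat with a 1-base spacer, the half-site AGGTCA, the E-box CACGTG, the sterol response core TCACNCCAC, the CCAAT box and TATAAA. The 300 bases of Abca9 had 2 CG dinucleotides and those of Abca8b 10, against a median of 7 over all windows. Those of Abca8a and Abca5, which were also called higher, had 4 and 40, and Abca8a held no GC box. The window of Abca8b also held the E-box, after its start and so outside the letters shown.
Abca8b: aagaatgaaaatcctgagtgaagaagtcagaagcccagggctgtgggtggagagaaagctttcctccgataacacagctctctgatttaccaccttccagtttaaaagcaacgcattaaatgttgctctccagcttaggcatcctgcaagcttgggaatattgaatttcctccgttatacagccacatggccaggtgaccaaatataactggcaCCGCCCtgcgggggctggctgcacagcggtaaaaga
Abca9: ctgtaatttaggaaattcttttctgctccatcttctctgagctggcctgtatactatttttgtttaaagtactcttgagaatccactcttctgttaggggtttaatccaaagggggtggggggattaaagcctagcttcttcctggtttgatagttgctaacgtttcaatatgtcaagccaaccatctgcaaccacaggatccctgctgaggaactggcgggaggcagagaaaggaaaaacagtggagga

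Of the 3 Abcd members, Abcd3 and Abcd2, which carry fatty acyl-CoA into peroxisomes, were lower. Abcd3, also known as PMP70, had -0.29, -0.47 and -0.53 on the oligonucleotide array (mean -0.43 ± 0.12, adjusted p = 0.0030). On the cDNA array it had -0.48, -0.54 and -0.32 (mean -0.45 ± 0.11, adjusted p = 0.132), so all 6 arrays lay below 0 and the array types differed by 0.02 ± 0.12 (SE). Averaged by pool it was at -0.44 ± 0.06 (adjusted p = 0.0572). Abcd2 was at -0.25 ± 0.08 (adjusted p = 0.0091, and 0.0661 without pool 1). Abcd4, which works in lysosomal handling of vitamin B12, was at -0.01 ± 0.08 and was not called. The cDNA array had Abcd4 at 0.89 ± 1.40, with both signs and not called.

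Of 12 listed genes of peroxisomal fatty acid oxidation and protein import, 9 were measured on the oligonucleotide array. Of these, 2 were higher and 1 was lower (33.3%, against 43.4% of all genes). Pex19, the carrier that brings Abcd3 and other membrane proteins to peroxisomes, was lower (-0.45 ± 0.03, adjusted p = 0.0010). Pex3, which receives Pex19 at the membrane, was higher (0.34 ± 0.04, adjusted p = 0.0024), as was Hsd17b4, an enzyme of peroxisomal oxidation (0.29 ± 0.08, adjusted p = 0.0058).

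Among the members without a membrane part, Abcf1 and Abcf2 were lower. Abcf1, which binds the initiation factor that brings the starter tRNA to ribosomes, had -0.30, -0.29 and -0.29 (mean -0.29 ± 0.01, 1.23-fold lower, adjusted p = 0.0030). Its 3 features had means of -0.44, -0.33 and -0.11, a wider spread than that between pools. Abcf2 was at -0.28 ± 0.07 (adjusted p = 0.0050) and, on the cDNA array, at 0.02 ± 0.14. Abce1, which splits ribosomes after termination, was at 0.01 ± 0.04 and Abcf3 at -0.04 ± 0.09, and neither was called. The cDNA array had Abcf3 at -0.71 ± 0.28, below 0 in every pool and not called (limma adjusted p = 0.116).

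The Abcb transporters of mitochondria and lysosomes (Abcb6, Abcb8, Abcb9 and Abcb10) ranged from -0.13 to 0.05, and 0 of 4 passed the threshold. Abcb6 and Abcb9 had an unadjusted limma p under 0.05, as had 52.6% of all genes on the oligonucleotide array. Abcg3, a rodent relative of Abcg2, was at -0.15 ± 0.05 (adjusted p = 0.0353) and its call was lost without any 1 pool. Abcb5 and Abcg4 were at 0.15 ± 0.14 and 0.11 ± 0.02 and were not called. Of the ABC proteins whose symbol does not carry the family name, the chloride channel gene Cftr was at 0.18 ± 0.12 on the oligonucleotide array (adjusted p = 0.0457). On the cDNA array Cftr was at -0.16 ± 0.09, below 0 in every pool and not called. Tap1 and Tap2, which load peptides for antigen presentation, were at -0.10 ± 0.09 and 0.03 ± 0.07 on the oligonucleotide array and were not called.

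Several features of a gene did not always agree. On the oligonucleotide array 7 members had more than 1 feature, and in 3 of them, Abca3, Abcb8 and Abcc8, a feature above 0 on all 3 arrays stood beside a feature below 0 on all 3. Abcc8 had feature means of 0.20, 0.01 and -0.18. None of these 3 genes was called.

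The cDNA array was then read for the 22 members with a value on all 3 arrays. Limma called 0 of them, as it called 0.00% of all 5011 genes tested, and robust moderation and the treat test called 0 as well. At an unadjusted p under 0.05 there were 7 members, 1 with a positive and 6 with a negative ratio (31.8%, against 30.3% of all genes). The median standard deviation over pools was 0.27 for the members on this array and 0.07 on the oligonucleotide array, and pool 3 correlated with pools 1 and 2 at r = 0.34 and 0.29 across all genes, with 0.70 between pools 1 and 2. Genes are not independent replicates in these correlations.

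Of the 22 members, 13 had the same sign of the mean on both array types (59.1%), as had 58.3% of 4702 genes. Of the 10 that the oligonucleotide array called and the cDNA array measured, 6 had the same sign, namely Abcg2 and Abca8b above 0 and Abcc2, Abca9, Abcd3 and Abcf1 below it. The ratio differed between array types for 4 members (adjusted p under 0.05), against 11.4% of all genes. Abcc10, an exporter of lipophilic drugs, was at 0.12, -0.0014 and 0.045 on the oligonucleotide array and at 1.05, 1.28 and 0.76 on the cDNA array. Abcc4 was at -0.08 ± 0.03 and -0.81 ± 0.19, Abcf1 at -0.29 ± 0.01 and -0.97 ± 0.21, and Abcb1b at 0.05 ± 0.03 and -0.35 ± 0.02, in the same order of array types. The pool was also fitted as a block, since both arrays of a pool read the same RNA. With the block as a fixed effect, 0 members and 0 genes differed. With the block as a random effect, 5 members and 622 of the 4702 genes differed. The member added to the 4 was Abca1 (limma adjusted p = 0.0449).

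**Figure D4:**
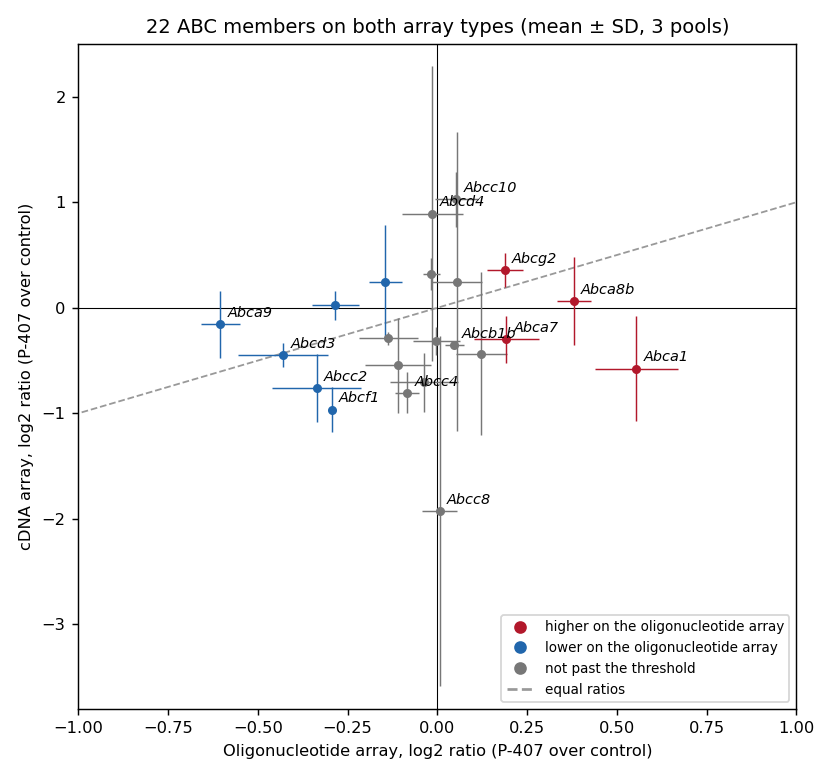
Mean log2 ratio of 22 members on the oligonucleotide array (x axis) and on the cDNA array (y axis, wider scale), with bars of 1 SD over 3 pools and a dashed line of equal ratios. Colours give the call of the oligonucleotide array. Abcd3 lies on the line, and Abca1 lies at 0.55 and -0.58.

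When both arrays of a pool were averaged, 0 of 22 members were higher and 1 was lower, against 2.47% and 2.64% of 4702 genes. At an unadjusted limma p under 0.05 there were 2 positive and 7 negative members (40.9%, against 36.3% of all genes). The member called was Abcf1, at -0.56, -0.75 and -0.58 in the 3 pools (mean -0.63 ± 0.10, adjusted p = 0.0435), and it was called in none of the fits that left out a pool. Without pool 3, Abcc10 (0.61) and Abcd4 (0.86) were called higher and Abcc2 (-0.68) lower.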

How the data were processed

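Liver RNA was measured on 6 two-colour Agilent arrays, 3 oligonucleotide and 3 cDNA. The authors deposited 1 log ratio per feature and array, read here as log2 and treated over control from the titles and dyes in the labels; the sources used here do not state its log base, centring, background correction or normalization. The largest absolute value, 6.34, is above what log10 of a 16-bit reading allows (4.82) and below what its natural log allows (11.1). The medians of the non-zero values were 0.01, 0.01 and 0.01 on the oligonucleotide arrays and -0.07, -0.09 and -0.02 on the cDNA arrays. Scanner intensities were not used here, and precision is limited by how many arrays there are.

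Values of 0 were taken as missing, arrays were centred on the median of non-zero features, and features naming 1 gene with values on all 3 arrays were averaged by gene. Symbols came from the platform annotation, and the gene IDs of all 45 members matched RefSeq of GRCm38.p6 with the same symbol. Each array type was fitted with limma 3.58.1 in R 4.3.3 (lmFit, eBayes, mean ratio against 0, Benjamini-Hochberg over all genes, threshold 0.05) and was tested on simulated data. Per the series' design text each numbered RNA pool was split over both array types, so the pool number pairs the arrays. Deviations from the array type's mean correlated at 0.06, 0.07 and 0.07 between the arrays of a pool. P-values measure the spread between pools only.

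Members, classes and gene lists were chosen with earlier results of these data known. Values per pool on the oligonucleotide array are given for the sterol exporters, the canalicular pumps and members called with an absolute log2 ratio of 0.5 or more. They are also given for Abcc10, which differs between array types. On the cDNA array they are given for part of these genes. Other members that differ between array types or have features of opposite sign are named, with values per pool for some of them. Values of Abca5, Abca6, Abca8a, Abca8b, Abcd3 and Abcf1 were added after they were seen, as were cDNA values of Abcd4 and Abcf3. Of other lists, up to 4 genes with the smallest p are named, and Cd68, Cd163, Alb, Nr1h3, Nr1h4, Rxra and Apoe were chosen after their values were seen. Python 3.11.15, pandas 2.3.3 and matplotlib 3.10.9 made tables and plots.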

Additional observations from a re-analysis of the deposited data

Results flagged for a closer look

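The array types, which read the same RNA, stood apart for 6 members, either by a test of the difference or by sign. The differences, oligonucleotide minus cDNA in log2, were 1.13 for Abca1 (adjusted p = 0.0502), 0.49 for Abca7 (0.0849), 0.40 for Abcb1b (0.0495), -0.98 for Abcc10 (0.0271), 0.72 for Abcc4 (0.0324) and 0.67 for Abcf1 (0.0400), with limma's adjusted p over 4702 genes in brackets. Abca1, Abca7 and Abcb1b were picked out because all 3 oligonucleotide arrays lay above 0 and all 3 cDNA arrays below it. Abcb1b, Abcc10, Abcc4 and Abcf1 passed the test of the difference without the pool as a block. With the pool as a fixed block their adjusted p was 0.157, 0.128, 0.134 and 0.138, so that none of the 4 passed. With the pool as a random block these 4 passed, as did Abca1 (limma adjusted p = 0.0449).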

How the results depend on the processing

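Alternatives are given for the counts of called members, the medians of the classes and the 18 called members. On the oligonucleotide array the 9 higher and 9 lower members stayed at 9 and 9 with centring as deposited or on the median of tested genes, zeros kept, at least 2 of 3 arrays, the median of a gene's features, or robust eBayes. Against a fold of 1.2, 2 were higher and 1 lower. With 1 pool left out, 5 to 8 were higher and 6 to 8 lower. Of the calls, 7 were lost without pool 1, 4 without pool 2 and 4 without pool 3. The share of all genes called, 43.4% in the main fit, was 23.9%, 29.2% and 37.0% in the same order. No called member changed sign. Of members not called, Abcb4 (-0.0025) was at 0.0049 with centring as deposited and 0.035 without pool 3, and Abcg5 (-0.0066) at 0.00074 with centring as deposited and 0.16 without pool 1. Chosen after seeing the data, the mean of the hepatocyte markers without the 4 that follow Alb was -0.36, against -0.34 with them. The median of the sterol exporters ranged from 0.23 to 0.36 with 1 pool left out, highest without pool 1, and that of the canalicular pumps from -0.058 to -0.012, highest without pool 3. On the cDNA array 0 members were called under every alternative, and the median of the other members was -0.28 with centring as deposited and ranged from -0.25 to -0.16 with 1 pool left out. In pool means, 0 to 2 members were higher and 0 to 1 lower with 1 pool left out. The replicate block as a fixed effect left 0 members that differ between array types and as a random effect 5, against 4 without it. Of all 4702 genes, 0, 622 and 537 differed in these fits, in the same order. The cause of these changes was not tested.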

Other observations

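Some members had cDNA features with values on fewer than 3 arrays. A further Abca1 feature had -2.52 in pool 3 alone, and Abcc5 had 2.10 in pool 2 and -1.53 in pool 3. Abcc1 had -0.39 and Abcg4 -0.44, both in pool 3 alone. None of these entered the main fit, which required values on all 3 arrays. The alternatives with zeros kept or with at least 2 of 3 arrays took in some of them.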
